A study of Oryza sativa with 16 samples.

Results

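The leaves of a pool of unscented rice lines were compared with the leaves of the scented variety those lines descend from. The 4 arrays titled as the bulk of non-aromatic lines were set against the 4 titled as Pusa 1121, so 8 of the 16 arrays of the series entered the comparison, chosen by their titles. Pusa 1121 is a basmati variety and the aromatic parent of the cross. The non-aromatic bulk pooled 6 recombinant inbred lines that had been scored by smell as extreme among the non-aromatic descendants of Pusa 1121 and the non-aromatic variety Pusa 1342. Repeated selfing leaves each such line with its own mix of segments from either parent, and which parental alleles each line carried is not given in the sources used here. Pusa 1342 (4 arrays) and a bulk of 6 highly aromatic lines of the same cross (4 arrays) were read beside them as references. All plants were grown in a field without treatment, and fresh leaves were taken about 25 days after transplanting, at a stage the submitters relate to the development of grain aroma. The submitters call the 4 arrays of each group biological replicates. Whether each replicate of the pool held separate plants of all 6 lines is not stated, so p-values here speak only of how these samples vary, which may be technical. A pool gives 1 level for 6 lines, so lines of equal level and lines of unlike level cannot be told apart, nor can fewer cells of a type and less RNA per cell.

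The scent of basmati rice comes largely from a volatile pyrroline compound that leaves make as well as grains. Its ring is built from precursors of the proline and polyamine pathways. Betaine aldehyde dehydrogenase BADH2 oxidises one of these precursors to a scentless acid, and in scented varieties a loss-of-function allele of its gene lets the precursor pass on to the odorant. An array reads the amount of transcript and not the allele. Beyond this locus, inbred lines of such a cross can carry alleles of either parent at any gene.

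The deposited intensities had been made equal in distribution, with a median of 64.2 and an upper quartile of 434 on each of the 16 arrays. Across probe sets, arrays of the bulk correlated with each other at a mean r of 0.917, arrays of Pusa 1121 at 0.930, and bulk with Pusa 1121 at 0.887. Among leaf genes, summed intensity ran from 189488 to 193190 on the bulk arrays and from 172057 to 178225 on the Pusa 1121 arrays, over 7 measured markers of which 2 were higher in the bulk, 0 lower and 1 below 100 throughout. The 14 floral markers summed to between 2271 and 2559 in the bulk and between 2185 and 2556 in Pusa 1121, with 2 higher, 2 lower and 7 below 100 on all 8 arrays. The 10 seed markers summed to between 4973 and 5557 and between 4961 and 5390.4, with 1 higher, 2 lower and 5 below 100. The 7 root markers summed to between 4987 and 5173 in the bulk and between 1951 and 2270 in Pusa 1121, with 3 higher (NRT2.3, Lsi1 and PHT1-2), 0 lower, and the silicon exporter Lsi2 near 3 in both groups. Array controls also moved with the groups. The added hybridisation controls averaged 11.73 ± 0.15 (SD, n = 4) on the log2 scale in the bulk and 11.42 ± 0.06 in Pusa 1121, with no overlap (exact permutation test, two-sided, p = 0.0286, the smallest that 4 arrays against 4 allow). The controls added to the RNA before labelling averaged 10.65 ± 0.02 and 10.61 ± 0.03 (p = 0.114, same exact test). The 3′ probe set of the GAPDH control exceeded its 5′ probe set by 1.53 ± 0.03 log2 units in the bulk and by 2.20 ± 0.11 in Pusa 1121 (exact permutation p = 0.0286). The same difference for actin was 2.13 ± 0.15 and 2.46 ± 0.09 (exact permutation p = 0.0286). The ubiquitin difference was -0.40 ± 0.01 and -0.43 ± 0.02 (exact permutation p = 0.0571). The effect of scaling to the hybridisation controls is given with the results, and the part of the 3′ to 5′ differences was not tested.

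Expression differed widely between the unscented pool and the scented parent. Of 57194 probe sets, 15010 passed an adjusted p of 0.05 (limma, adjusted by Benjamini-Hochberg), which is 26.2%, and 7265 of them were higher and 7745 lower in the bulk. Read as genes through the brightest probe set, 7894 of 17905 genes passed (44.1%), with 4008 higher (22.4%) and 3886 lower (21.7%). A difference of at least 2-fold was reached by 2461 genes (13.7%), 1339 higher (7.48%) and 1122 lower (6.27%). Of the 10075 genes with a mean of at least 500 in either group, 6046 passed (60.0%). In the same fit the parents differed at 8097 genes (45.2%) and the bulk differed from Pusa 1342 at 6944 (38.8%). The 8 arrays separated by group without overlap for 8716 genes (48.7%). Differences are given as log2 of intensity plus 1, bulk minus Pusa 1121, with the standard error of the fit, and folds are on that scale, which understates the change of dim genes. The median gene differed by -0.0041. Scaling the arrays to the hybridisation controls instead shifts every gene by the difference in those controls, to a median of -0.32 over genes, and changes the split to 1713 higher and 5859 lower. Directions below are relative to the equalised distribution. Of the 130 genes followed through the alternative fits, RAB16C and LOC4345559, which passed on neither scale, changed sign on the scale of the hybridisation controls.

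**Figure D1:**
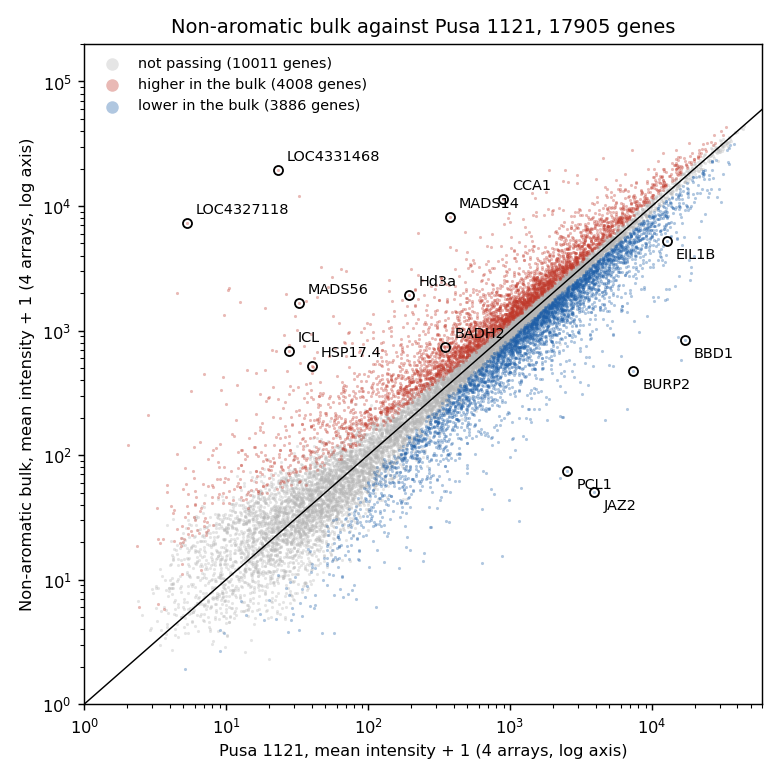
Mean intensity plus 1 of 17905 genes in the non-aromatic bulk (vertical) against Pusa 1121 (horizontal), 4 arrays each, both axes logarithmic. Red genes were higher and blue genes lower in the bulk at an adjusted p of 0.05, grey genes did not pass, and circled genes are named in the text; MADS56 and CCA1 lie above the line of equality and JAZ2, PCL1 and BBD1 below it.

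BADH2, the fragrance gene, was higher in the unscented bulk than in the scented parent. BADH2 (LOC4345606) on chromosome 8 read 808, 683, 687 and 751 on the bulk arrays and 322, 288, 375 and 409.9 on those of Pusa 1121. The groups did not overlap (log2 difference 1.08 ± 0.12, adjusted p = 6.69e-06). Pusa 1342 stood at 2233 ± 10.3 (SD, n = 4). The bulk thus lay 40.1% of the way from the aromatic to the non-aromatic parent on the log2 scale and 20.4% on the linear scale. Its level was below that of Pusa 1342 (limma, adjusted p = 2.15e-07). The aromatic bulk read 369.8 ± 39.9. Its paralogue BADH1 (LOC4336081) overlapped between the groups, with 1115, 1188, 1053 and 1219 in the bulk and 1083, 761, 748 and 989.7 in Pusa 1121 (log2 difference 0.37 ± 0.12, adjusted p = 0.0304). That call was lost in 8 of 16 alternative fits, with adjusted p-values between 0.00439 and 0.824 over all of them. It did not pass without any 1 of bulk arrays 1, 2 and 4 or Pusa 1121 arrays 2 and 3, where its difference was 0.29 to 0.38.

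P5CS1, OAT and, through its brighter probe set, ADC1 were also higher in the unscented lines, and P5CS2 did not pass. These genes act in proline and polyamine synthesis. Their rise was not particular to the unscented lines. The aromatic bulk was also above Pusa 1121, with means of 5087 for P5CS1, 2293 for OAT and 18930 for ADC1. P5CS1, which codes for pyrroline-5-carboxylate synthase, the first committed enzyme of proline synthesis from glutamate, read 3980.3, 4411, 4254 and 4391 in the bulk and 2426, 2477, 2285 and 2402 in Pusa 1121, with every bulk array above every parental one (log2 difference 0.83 ± 0.06, adjusted p = 2.31e-07). Its level in Pusa 1342 was 6537. The second synthase gene, P5CS2 (LOC4324853), read 437, 406, 463 and 361 against 284, 324, 311 and 360.2 and did not pass (log2 difference 0.38 ± 0.15, adjusted p = 0.0791), and averaging its 4 probe sets, of which the other 3 were dim, turned the difference to -1.01, which passed as lower (limma, adjusted p = 0.0378). One of the dim probe sets was itself lower in the bulk (log2 difference -3.88, adjusted p = 7.58e-04). Ornithine aminotransferase, OAT (LOC4333554), which yields the same pyrroline intermediate from ornithine, read 2343, 2506, 2324 and 2399.7 in the bulk and 1205, 1233, 1156 and 1269.5 in Pusa 1121 (log2 difference 0.98 ± 0.07, adjusted p = 2.54e-07). The arginine decarboxylase gene ADC1 (LOC4340008), at the entry to polyamine synthesis, read 11288, 11384, 11482 and 12987 against 8504, 8950.3, 8398 and 9097 (log2 difference 0.43 ± 0.07, adjusted p = 4.34e-04), while Pusa 1342 lay lower than both at 6128. On the scale of the hybridisation controls the ADC1 difference was 0.12 and did not pass. The second probe set of ADC1 averaged 1116 in the bulk and 1024 in Pusa 1121 and did not pass (log2 difference 0.125, limma adjusted p = 0.342). Of the 10 measured members of the scent, amine and proline list, 6 were higher (60.0%) and 1 lower in the bulk. The median was 0.40. Among all genes 22.4% were higher and 21.7% lower, or 44.1% called. On the scale of the hybridisation controls 3 of the list were higher and 1 lower. All 17905 genes on that scale gave 1713 higher and 5859 lower.

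The 3 largest rises and falls among genes without a published name set a bright group against one near the bottom of the intensity scale. LOC4327118 read 7086, 7128, 7448 and 7432 in the bulk and 5.64, 2.38, 2.54 and 6.64 in Pusa 1121, with 9629 in Pusa 1342 (log2 difference 10.52 ± 0.22, adjusted p = 2.78e-12). LOC4331468 read 19548, 20517, 18874 and 19001 against 22.4, 48.7, 2.79 and 14.3, but of its other 3 probe sets, which averaged 1068, 1033 and 342 in Pusa 1121, only the last was called, at 3.84, so other probe sets of the gene had clear signal in the parent. LOC4348206 read 2079.9, 2070.4, 1887 and 1917 against 1.92, 1.79, 3.75 and 6.63. In the other direction, LOC9270995 read 4.49, 6.14, 4.34 and 43.0 in the bulk and 844, 779, 790.4 and 1082 in Pusa 1121, where the parent was high on all 4 arrays. LOC4350947 had a bulk mean of 12.5 against 632, and LOC4331855 one of 28.4 against 1154. The aromatic bulk averaged 7982, 14927 and 5113 for the 3 genes that rose, in that order. For LOC9270995, LOC4350947 and LOC4331855 it averaged 339.5, 36.1 and 20.9. Except at LOC9270995, it thus also differed from Pusa 1121 (limma, adjusted p under 0.05). Probe sets were not checked for sequence differences between the varieties, so a missing transcript and a mismatched probe cannot be told apart for the 5 genes other than LOC4331468, each read by 1 probe set.

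Among genes with a published name, the largest rises joined flowering, glyoxylate cycle and clock genes. Malate synthase MS (LOC9268154) and isocitrate lyase ICL (LOC4343441), the pair of enzymes particular to the glyoxylate cycle that turns fatty acid carbon toward sugar, were dim in Pusa 1121 and of middling intensity in the bulk. MS read 834, 577, 711 and 595 in the bulk and 11.2, 15.2, 17.9 and 41.0 in the parent (log2 difference 5.08 ± 0.48, adjusted p = 1.88e-06). ICL read 601, 706, 611 and 796 and 14.4, 34.4, 5.08 and 52.4 (log2 difference 5.04 ± 0.51, adjusted p = 3.75e-06). Pusa 1342 averaged 324 for MS and 164 for ICL, and the aromatic bulk 16.8 and 42.6, so the non-aromatic bulk had the highest mean of the 4 groups for both. The autophagy gene APG8D (LOC4349525) rose from 57.6 ± 26.4 to 719 ± 138, the laccase gene LAC19 (LOC4351005) from 87.3 ± 52.6 to 691 ± 88.0 and IMCEL2 (LOC4326560) from 70.9 ± 26.9 to 946 ± 144, with adjusted p-values of 2.62e-07, 5.88e-04 and 7.70e-09.

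The largest falls were led by JAZ2. The jasmonate repressor gene JAZ2 (LOC4342421) read 4029, 3958, 4073 and 3672 in Pusa 1121 and 33.2, 63.3, 5.75 and 96.2 in the bulk (log2 difference -6.83 ± 0.72, adjusted p = 6.22e-06), and its mean in Pusa 1342 was 17.7. BBD1 (LOC4326932), which codes for a bifunctional nuclease, read 16857, 17279, 16475 and 17497 in Pusa 1121 and 788, 832, 928 and 789 in the bulk (log2 difference -4.35 ± 0.09, adjusted p = 2.78e-12), close to the 1076 of Pusa 1342. The tonoplast aquaporin gene TIP4-1 (LOC4338163) fell from 15156 ± 398 to 892 ± 46.4, below the 1804 of Pusa 1342, and the aromatic bulk averaged 1210. BURP2 (LOC4338119), of the plant-specific BURP domain family, read 474 in the bulk against 7373 in Pusa 1121 and 14998 in Pusa 1342, so the unscented lines lay under both parents, while the aromatic bulk reached 25803. The protein kinase gene SAPK9 (LOC4352660), of the family activated by osmotic stress and abscisic acid, fell from 734 ± 24.9 to 52.3 ± 11.7. The laccase gene LAC7 (LOC4324802), the tubulin gene TUB6 (LOC4338790), HIRL1 and mfs1 (LOC4326904) were lower by 7.52, 6.75, 6.40 and 5.71-fold, and the 3 other probe sets of HIRL1 were called in the same direction.

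**Figure D2:**
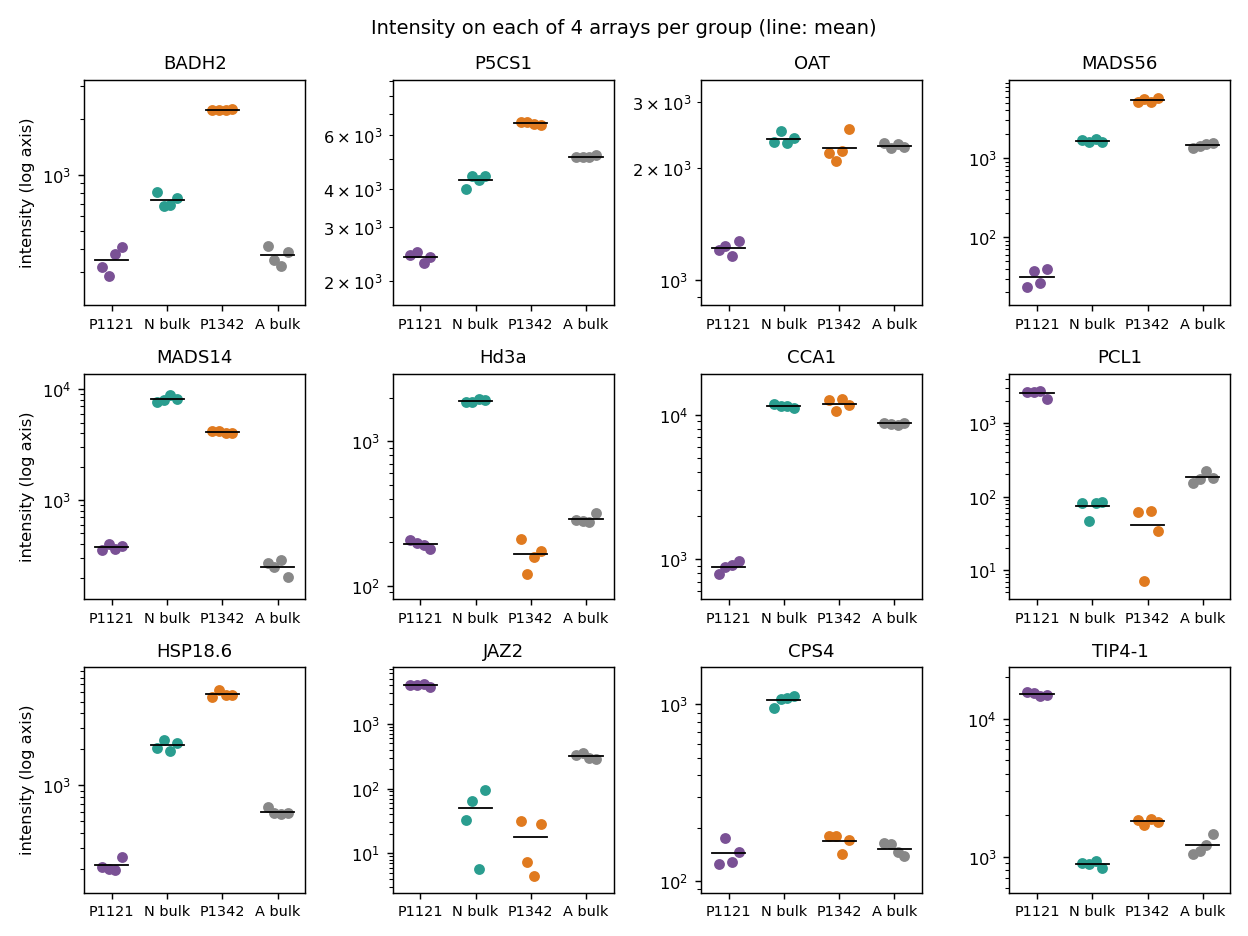
Intensity of 12 genes on each of the 4 arrays of Pusa 1121, the non-aromatic bulk, Pusa 1342 and the aromatic bulk, on logarithmic axes that differ between panels, with a line at each group mean. The bulk lies between the parents for BADH2 and P5CS1, beyond both for MADS14, Hd3a, CPS4 and TIP4-1, and next to Pusa 1342 for CCA1 and PCL1.

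Flowering genes held some of the widest differences. In rice, the florigen Hd3a is made in leaves under inductive days and moves to the shoot tip, where it acts with genes such as MADS14 to start the inflorescence; MADS50 promotes and MADS56 represses flowering under long days. Hd3a (LOC4340185) read 1884, 1863, 1972 and 1934 in the bulk and 208, 196, 191 and 179 in Pusa 1121 (log2 difference 3.30 ± 0.13, adjusted p = 4.77e-10), a 9.84-fold rise, while Pusa 1342 and the aromatic bulk averaged 167 and 289.9. The unscented lines were thus high where both parents were low. MADS14 (LOC4334140) read 7696, 7947, 8824 and 8098 in the bulk and 354, 399.8, 359.8 and 387 in Pusa 1121 (log2 difference 4.44 ± 0.10, adjusted p = 5.26e-12), with 4125 in Pusa 1342, and its 3 other probe sets were called in the same direction. Its relative MADS15 (LOC4342214), named after its values were seen, rose from 45.2 ± 31.5 to 384 ± 33.0. MADS56 (LOC4349237) read 1701, 1618, 1721 and 1610.0 against 23.6, 37.3, 26.3 and 39.2 (log2 difference 5.70 ± 0.14, adjusted p = 7.32e-12), below the 5373 of Pusa 1342 (adjusted p = 7.86e-07). In the aromatic bulk MADS56 averaged 1465. MADS50 (LOC4331445) went the other way, with 403, 428, 409 and 428 in the bulk and 1504, 1533, 1514 and 1584 in Pusa 1121 (log2 difference -1.88 ± 0.06, adjusted p = 9.19e-11), while Pusa 1342 averaged 1698 and the aromatic bulk 1793. Of the 22 measured flowering genes, 9 were higher and 6 lower, or 68.2% against the 44.1% of all genes. This list shares members with the clock list, among them GI, and with the floral markers, among them MADS5. The median was 0.10 (6 higher, 7 lower and a median of -0.21 on the scale of the hybridisation controls). Among the floral organ markers, MADS1 averaged 662 in the bulk and 301 in Pusa 1121, and MADS5 averaged 61.1 and 435. The brightest, MADS16, averaged 1193 and 1055 and did not pass (limma, adjusted p = 0.305). MADS2 was called higher, at 104.5 against 40.6. MADS6, MADS13 and MADS3 averaged below 40 in both groups. The part of these markers in the flowering results was not tested.

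The measured genes of the circadian clock all passed the test, with CCA1 higher and the rest lower. CCA1 (LOC4344703), the myb factor that peaks at dawn in plants, read 11824, 11395, 11407 and 11143 in the bulk and 794, 884, 908 and 969 in Pusa 1121 (log2 difference 3.69 ± 0.08, adjusted p = 4.02e-12), a 12.9-fold rise. Pusa 1342 averaged 11918, from which the bulk did not differ by the test (adjusted p = 0.713), and the aromatic bulk averaged 8677. PCL1 (LOC4326391), the rice relative of the Arabidopsis evening factor LUX, read 82.8, 46.0, 80.7 and 85.1 against 2681, 2646, 2694 and 2128 (log2 difference -5.12 ± 0.51, adjusted p = 3.29e-06), with 41.6 in Pusa 1342. PRR1 (LOC4330000), the rice counterpart of the evening gene TOC1 of Arabidopsis, fell from 2322 ± 114 to 850.3 ± 108 (log2 difference -1.46, adjusted p = 1.02e-07). The gigantea gene GI (LOC4325329) fell from 17917 to 9349.9 and PRR95 (LOC4347674) from 26238 to 13809, both by under 2-fold, as did PRR37 (LOC4344399) (log2 difference -0.77) and PRR73 (LOC4332464) (-0.52), this last pair named after their values were seen. Of 7 measured clock genes 1 was higher and 6 were lower (85.7% against the 21.7% of all genes). All 7 were called, against 44.1% of all genes and 60.0% of those with a mean of at least 500 in either group. The median was -0.93, and the same counts held on the scale of the hybridisation controls. The hour at which leaves were taken is not given in the sources used here.

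**Figure D3:**
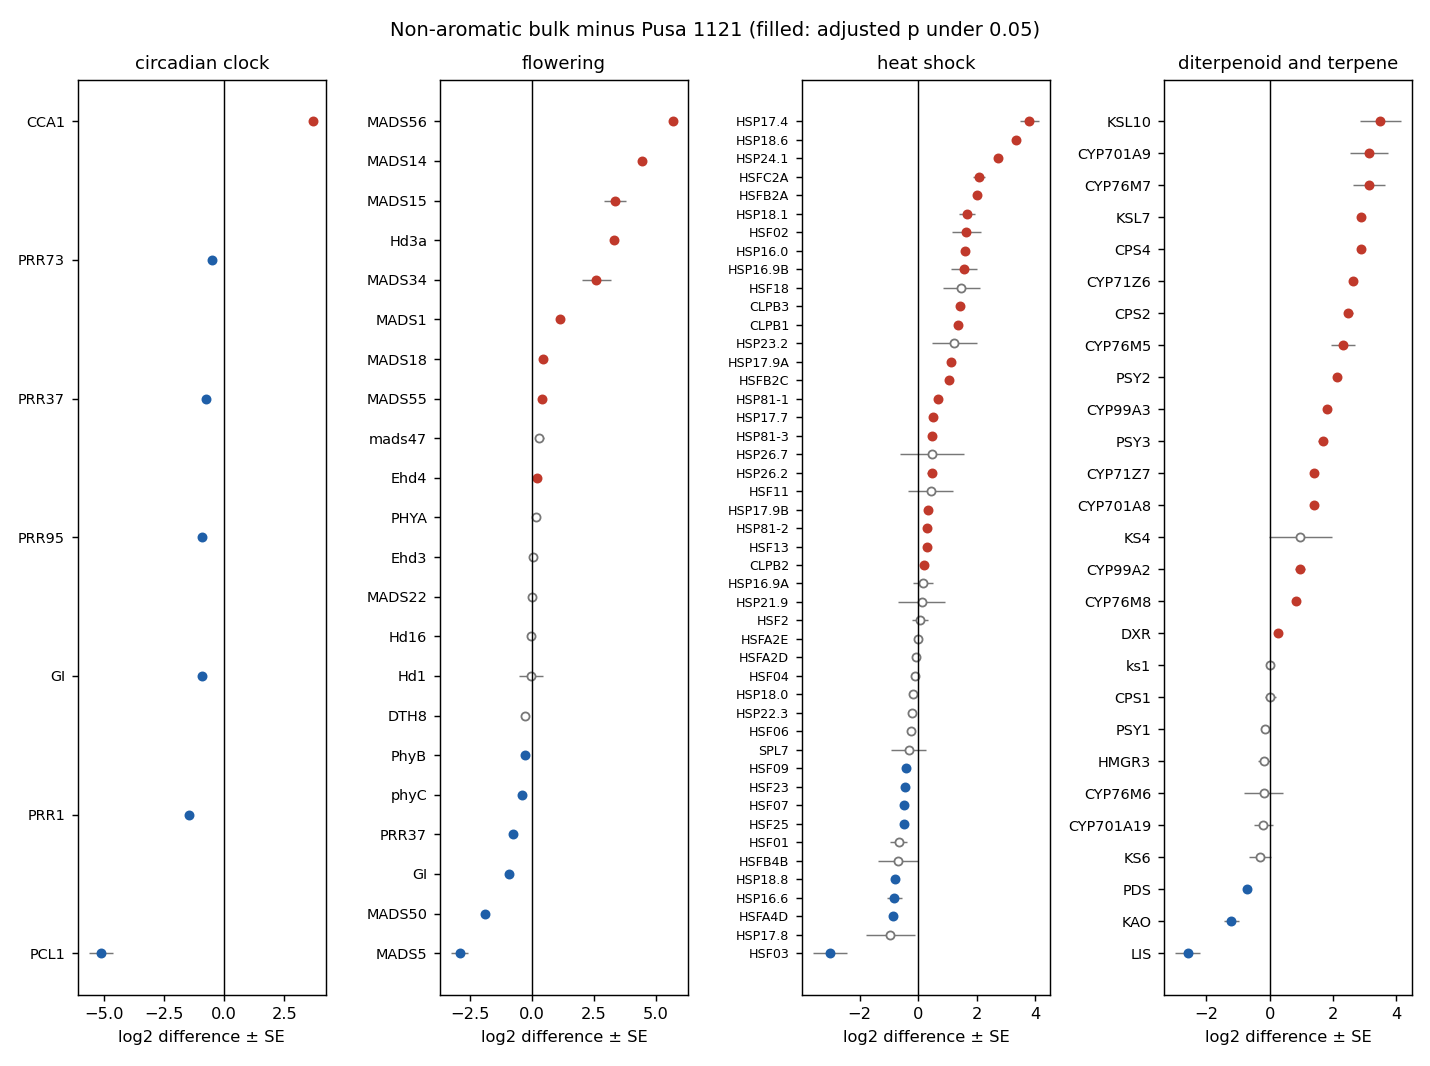
Log2 difference, non-aromatic bulk minus Pusa 1121, with its standard error for every measured member of the clock, flowering, heat shock and terpene lists, ordered by size. Filled points passed an adjusted p of 0.05; CCA1 stands alone on the higher side of the clock, and KSL7 and CPS4 are among the highest of the terpene list.

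Heat shock genes were more often higher than lower in the unscented lines on the deposited scale. On that of the hybridisation controls they were about evenly split, while all genes leaned lower. Small heat shock proteins hold unfolding proteins in solution, and heat shock factors switch their genes on or off. HSP17.4 (LOC4332360) read 568, 598, 401 and 498 in the bulk and 50.9, 53.2, 36.0 and 16.1 in Pusa 1121 (log2 difference 3.81 ± 0.33, adjusted p = 7.99e-07), with 575 in Pusa 1342. HSP18.6 (LOC4330933) read 2037, 2387, 1953 and 2260.5 against 206, 201, 194 and 251 (log2 difference 3.34 ± 0.10, adjusted p = 3.65e-11), short of the 5789.5 of Pusa 1342. HSP24.1 (LOC4330786), by name of the same class, rose from 520.3 ± 64.4 to 3430.2 ± 174. The factor gene HSFB2A (LOC4336701) rose from 725 ± 53.9 to 2952 ± 103, and the disaggregating chaperone gene CLPB1 (LOC4339343) from 320.2 ± 16.8 to 833 ± 47.6, about midway to the 1699 of Pusa 1342. Of 46 measured members, 21 were higher (45.7%) and 8 lower, or 63.0% called against the 44.1% of all genes, with a median of 0.31. On the scale of the hybridisation controls the counts were 12 and 13 and the median was 0.0004. All genes on that scale gave 1713 higher and 5859 lower, with a median of -0.32. The 5 genes named here passed on both scales.

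Genes of water stress were called about as often as all genes, at 40.0% against 44.1%. They gave 8 higher, 0 lower and 12 not passing of 20, with a median of 0.47 (6 higher, 2 lower and 0.16 on the scale of the hybridisation controls). The transcription factor gene ABF2 (LOC4330838), which acts in abscisic acid signalling, read 4591, 4487, 4498 and 4372 in the bulk and 1453, 1473, 1274 and 1522 in Pusa 1121 (log2 difference 1.65 ± 0.08, adjusted p = 1.88e-09), next to the 4712 of Pusa 1342. The jacalin-type lectin gene salT (LOC4326471), known for its rise under salt, read 2699, 3084, 2762 and 2767 against 1052, 1144, 1038 and 1047 (log2 difference 1.40 ± 0.09, adjusted p = 2.51e-08), but here Pusa 1342 was the lowest at 255, so the bulk exceeded both parents. The dehydrin gene Dhn1 (LOC4330265) rose from 688 ± 47.7 to 1477 ± 96.8 through its bright probe set, whereas 2 dim ones did not pass. SNAC2 (LOC4325006), a NAC factor of drought tolerance, rose from 4934 to 6890.3 (log2 difference 0.48, adjusted p = 5.70e-05), which was lost on the scale of the hybridisation controls and when its 2 dim probe sets were averaged in. The abscisic acid 8′-hydroxylase gene CYP707A6 (LOC4345810), which codes for a catabolic enzyme, rose from 1374 ± 125 to 3876 ± 189.

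Terpene synthesis held the list with the highest median. Rice defends itself with labdane diterpenoids, which begin with a copalyl diphosphate synthase (CPS), continue with a kaurene synthase-like enzyme (KSL) and are decorated by cytochromes P450. CPS4 (LOC4335090), the gateway to momilactones, read 952, 1079.9, 1091 and 1118 in the bulk and 125, 175, 128 and 147 in Pusa 1121 (log2 difference 2.88 ± 0.12, adjusted p = 5.89e-10), a 7.38-fold rise over parents that were alike (Pusa 1342 168). KSL7 (LOC4329724), of the phytocassane branch, read 1015, 1048, 999.9 and 1112 against 135, 124, 136 and 165 (log2 difference 2.90 ± 0.10, adjusted p = 8.35e-11), also above the 229.6 of Pusa 1342. Of the P450 genes, CYP99A3 (LOC4335091), beside CPS4 in the momilactone cluster on chromosome 4, went from 406 to 1421, and CYP71Z6 (LOC4329725) and CYP71Z7 (LOC4329726), beside KSL7 on chromosome 2, went from 174 to 1075 and from 1767 to 4722. The phytoene synthase gene PSY2 (LOC4352846) of carotenoid synthesis rose from 1964 ± 93.9 to 8591 ± 77.6, with 8841 in the aromatic bulk. The linalool synthase gene LIS (LOC4328124), named after its values were seen, was lower in the bulk (33.8 ± 25.1) than in Pusa 1121 (173 ± 42.2; log2 difference -2.58, adjusted p = 1.93e-04). Of 27 measured members, 16 were higher (59.3%) and 3 lower (11.1%), or 70.4% called against the 44.1% of all genes. The median was 0.98. On the scale of the hybridisation controls 15 were higher and 4 lower. The P450 list, which shares members with the terpene list, gave 14 higher and 6 lower of 29 (69.0%) with a median of 0.52.

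Other defence genes gave 9 higher, 1 lower and 7 not passing of 17, or 58.8% called against the 44.1% of all genes. The median was 0.61 (4 higher and 3 lower on the scale of the hybridisation controls). The Bowman-Birk protease inhibitor gene RBBI3.3 (LOC9271230) read 1184, 1146, 985 and 1233 in the bulk and 114, 84.8, 116 and 96.1 in Pusa 1121 (log2 difference 3.46 ± 0.11, adjusted p = 4.36e-11), above the 575 of Pusa 1342. The chitinase gene Cht-1 (LOC4342115) read 1039, 1127, 1002 and 1288 against 377, 332, 338 and 349, 3.17-fold higher. The pathogenesis-related gene PBZ1 (LOC4352491) rose from 16794 to 24133 (0.21 and not passing on the scale of the hybridisation controls, adjusted p = 0.226), and NPR3 (LOC4333666), of the salicylate receptor family, from 704 to 1286. Of 6 WRKY factor genes, the neighbours WRKY62 (LOC4347070) and WRKY76 (LOC4347069), both known as negative regulators of blast and blight resistance, rose 2.64 and 3.22-fold, and WRKY51 fell 1.34-fold. The WRKY51 call (log2 difference -0.42, adjusted p = 0.0169) was lost without bulk array 1, at -0.38 (limma, adjusted p = 0.0504), or Pusa 1121 array 3, at -0.37 (adjusted p = 0.0548). Of 6 resistance genes 1 was higher and 1 lower, or 33.3% against the 44.1% of all genes. The lower was Pi21 (LOC4335725), whose product promotes blast susceptibility, at 1007, 1039, 935 and 1038 in the bulk and 2895, 3280.3, 2923 and 3223 in Pusa 1121 (log2 difference -1.61 ± 0.07, adjusted p = 1.44e-09), under both parents.

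Jasmonate and ethylene genes showed large single differences in both directions. On the scale of the hybridisation controls their lists held more lower than higher calls, as did all genes (1713 higher and 5859 lower). Lipoxygenases start the oxylipin pathway and 12-oxophytodienoate reductases stand later in it. Among 19 such genes 5 were higher and 5 lower (2 and 5 on the scale of the hybridisation controls), or 52.6% against the 44.1% of all genes. LOX8 (LOC4345993) was lower in the bulk, with 2686, 2599, 2921 and 2651 against 4117, 4366, 4361 and 4096 (log2 difference -0.64 ± 0.07, adjusted p = 1.59e-05), but far above the 299 of Pusa 1342, and its chromosomal neighbour LOX9 (LOC4345994) did alike, with means of 2589 against 3504 and 654 in Pusa 1342, though its 2 dimmer probe sets did not pass. LOX5 (LOC4333823) rose from 318 to 853 and OPR10 (LOC4340486) from 522 to 826 (0.35 and not passing on the scale of the hybridisation controls, adjusted p = 0.0598), while OPR1 (LOC4340490) fell from 1231 to 593. Of 17 JAZ and related repressor genes 3 were higher and 5 lower (1 and 7 on the scale of the hybridisation controls), or 47.1% against the 44.1% of all genes. Beside JAZ2, JAZ8 (LOC4347164) fell from 1281 ± 123 to 521 ± 54.2 and JAZ5 (LOC4335698) from 220.2 ± 33.1 to 91.6 ± 19.5, whereas JAZ4 (LOC4347000) rose from 2791 to 5550.3. In the ethylene list, 2 of 11 were higher and 3 lower (1 and 5 on the scale of the hybridisation controls), or 45.5%. EIL1B (LOC4332697), an EIN3-like transcription factor gene, read 5590.2, 4715, 5484 and 5207 in the bulk and 12820.1, 12748, 12856 and 12365 in Pusa 1121 (log2 difference -1.28 ± 0.13, adjusted p = 3.27e-06) and only 50.1 in Pusa 1342. The ethylene synthesis gene ACS2 (LOC4336750) rose from 51.6 ± 20.2 to 285 ± 64.6. The receptor genes ETR2 (LOC4335058) and ETR3 (LOC4331174) had log2 differences of -0.75 and 0.45. The ETR3 call was lost on the scale of the hybridisation controls (0.13, limma adjusted p = 0.482), and averaging both probe sets of ETR2, 1 of them dim, gave 0.13.

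Chlorophyll genes were mostly lower. Of 12 genes of chlorophyll synthesis and breakdown, 7 were lower (58.3%) and 2 higher, against 21.7% and 22.4% of all genes. The median was -0.44. On the scale of the hybridisation controls 9 were lower and 2 higher, against 5859 and 1713 of all 17905 genes. The 2 higher genes both act in breakdown, while NYC1, a chlorophyll b reductase gene of breakdown named after its values were seen, was among the lower, with means of 2989 in the bulk and 4515 in Pusa 1121. SGR (LOC4347672), the stay-green gene whose product removes magnesium from chlorophyll, read 5096, 4421, 4492 and 4361 in the bulk and 1029, 969, 1086 and 979 in Pusa 1121 (log2 difference 2.17 ± 0.09, adjusted p = 9.19e-10). The red chlorophyll catabolite reductase gene RCCR1 (LOC4348519) rose from 1373 ± 116 to 2750.0 ± 110.5. On the synthesis side, the magnesium chelatase subunit gene CHLD (LOC4334537) fell from 4102 ± 82.2 to 2435 ± 133 and the coproporphyrinogen oxidase gene CPX (LOC4336951) from 12195 ± 484 to 6938 ± 159.6. Of 9 photosynthesis genes 2 were higher and 0 lower (1 and 2 on the scale of the hybridisation controls), or 22.2% against the 44.1% of all genes. PSAG (LOC4337812), a photosystem I subunit gene, rose from 4916 to 9267, though its dim second probe set did not pass. The rubisco activase gene RCAA1 (LOC4351224) rose from 33088 to 43193, near the top of the intensity scale (0.07 and not passing on the scale of the hybridisation controls), and its 3 other probe sets were higher by 0.66 to 0.88.

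Sugar and starch genes, listed together with MS and ICL, gave 14 higher and 8 lower of 42, or 52.4% against the 44.1% of all genes. The median was 0.07 (7 higher, 9 lower and -0.25 on the scale of the hybridisation controls). The sugar transporter gene SWEET2B (LOC4326923) read 1528, 1717, 1636 and 1549.7 in the bulk and 222, 224, 203 and 197 in Pusa 1121 (log2 difference 2.92 ± 0.07, adjusted p = 9.67e-12), and Pusa 1342 read 2072. The soluble starch synthase gene SSI (LOC9269493) rose from 1362 ± 71.9 to 3425 ± 74.0, and the sucrose synthase gene SUS4 (LOC4332788) fell from 2842 ± 85.7 to 1236 ± 117.

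Water channels and nutrient transporters differed in both directions. Of 25 aquaporin genes, 12 were higher and 4 lower, or 64.0% against the 44.1% of all genes. The median was 0.41 (6 higher and 5 lower on the scale of the hybridisation controls). The plasma membrane genes PIP2-4 (LOC4343119) and PIP2-5 (LOC4343121), neighbours on chromosome 7, rose 6.30 and 7.79-fold. PIP2-4 read 2356, 2297, 2203 and 2476 against 422, 376, 311 and 376 and PIP2-5 981, 1113, 981 and 851 against 108, 104, 153 and 141, both above Pusa 1342 (955 and 327). The tonoplast gene TIP1-1 (LOC4331608) rose from 11947 to 26577, opposite to TIP4-1. Among 78 nutrient transport genes 17 were higher and 20 lower (11 and 25 on the scale of the hybridisation controls), or 47.4% against the 44.1% of all genes. The ammonium transporter gene AMT1-1 (LOC4336365) read 13422, 12911, 12856 and 12599 in the bulk and 1974, 1601, 1732 and 1872 in Pusa 1121 (log2 difference 2.85 ± 0.07, adjusted p = 1.12e-11), with 8728 in Pusa 1342. The 3 higher root markers are transport genes too, and averaged 688 in the bulk against 131 for NRT2.3, 2514 against 1037 for Lsi1 and 1615 against 691 for PHT1-2; the part of root-type expression in these lists was not tested. The potassium transporter genes HAK25 (LOC4330614) and HAK1 (LOC4335729) fell from 3029.8 to 969.6 and from 4500.0 to 1927, and the metal-nicotianamine transporter gene YSL16 (LOC4336546) from 11989.8 to 4785.

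The phenylpropanoid and lignin list leaned lower, with 12 lower, 9 higher and a median of -0.43 over 35 genes (15 lower and 6 higher on the scale of the hybridisation controls). Its called share was 60.0%, against the 44.1% of all genes. The chalcone isomerase gene CHI (LOC4334588) fell from 6824 ± 474 to 3316 ± 142. The phenylalanine ammonia-lyase gene PAL06 (LOC4330040) rose from 277 ± 64.8 to 2269 ± 245 (log2 difference 3.05 ± 0.18, adjusted p = 1.54e-08) and the coumarate ligase gene 4CL5 (LOC4345717) from 361 ± 17.6 to 878 ± 40.3. Expansins loosen cell walls, and of 30 wall genes 7 were higher and 4 lower, or 36.7% against the 44.1% of all genes. EXPB3 (LOC4349349) read 4479, 4329, 4429 and 4436 in the bulk and 444, 480.1, 391 and 338 in Pusa 1121 (log2 difference 3.43 ± 0.11, adjusted p = 5.54e-11). EXPA2 (LOC4327568) rose from 68.5 ± 15.3 to 628 ± 10.8 and EXPB11 (LOC4330213) from 82.8 to 356, each to about the mean of Pusa 1342 (4564, 634 and 318 in that order of genes), while EXLA3 (LOC4343213) fell from 600.0 ± 27.3 to 191 ± 8.69.

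Signalling genes were spread over both directions. Of 77 calcium sensor genes 25 were higher and 11 lower, or 46.8% against the 44.1% of all genes. The median was 0.18 (14 higher, 24 lower and -0.13 on the scale of the hybridisation controls). The kinase genes CIPK5 (LOC4327093), CIPK6 (LOC4345687) and CIPK16 (LOC4347071), whose products are switched on by calcineurin B-like calcium sensors, rose 7.71, 6.50 and 3.50-fold. CIPK5 read 3786, 3745, 3687 and 3746 against 474, 477, 455 and 534. CIPK10 (LOC4332786) fell from 7688 ± 177 to 2656 ± 60.2, and its 3 other probe sets fell with it. Of 84 auxin and cytokinin genes 29 were higher and 17 lower, or 54.8% called, with a median of 0.20 (11, 22 and -0.12 on the scale of the hybridisation controls). The auxin transporter gene PIN5A (LOC4324368) fell from 4524 ± 307 to 1246 ± 86.6, the small auxin-up gene SAUR39 (LOC9271092) from 1153 ± 105 to 335 ± 60.8 and the repressor gene IAA15 (LOC4337971) from 3558 ± 119 to 2150.3 ± 105, and the cytokinin oxidase gene CKX4 (LOC4326515) rose from 1939 ± 59.2 to 3439 ± 83.2. In the gibberellin and brassinosteroid list, 5 of 11 were higher and 3 lower (2 and 4 on the scale of the hybridisation controls), or 72.7% called. The gibberellin synthesis gene GA20OX3 rose from 99.8 ± 30.6 to 476 ± 32.6, the receptor gene gid1 (LOC4338764) from 1156 ± 231 to 2869 ± 148, and the repressor gene SLR1 (LOC4333860) and the brassinosteroid factor gene BZR2 (LOC4327076) by 0.60 and 0.56 log2 units, the last pair not on the scale of the hybridisation controls.

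Cell cycle genes were called less often than the background of 44.1%, at 27.9% of 43, with 6 higher and 6 lower (1 and 15 on the scale of the hybridisation controls); this share was not tested. CYCD4-2 (LOC4345844) rose from 126 to 262, and the inhibitor gene KRP6 (LOC4347280) and the cyclin gene CYCA1-4 (LOC4338177) fell from 325 to 171 and from 853 to 504. The KRP6 call was lost when its dim second probe set was averaged in. Of 24 ribosomal protein genes, 16 were higher and 3 lower, or 79.2% called, with a median of 0.34. On the scale of the hybridisation controls the counts were 2 and 3 and the median was 0.03. RPL18 (LOC4334651) fell from 11435 ± 984 to 4195 ± 226 on both scales, and RPS26 (LOC4327570) and rps20 (LOC4340027) rose by 0.69 and 0.74 log2 units. Of 7 BURP genes, BURP2 was lower, BURP3 (LOC4324159) was higher (from 571 to 872) and 5 did not pass, so 28.6% were called. The BURP3 call was lost on the scale of the hybridisation controls (0.30, limma adjusted p = 0.224), which left 0 higher and 1 lower.

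**Figure D4:**
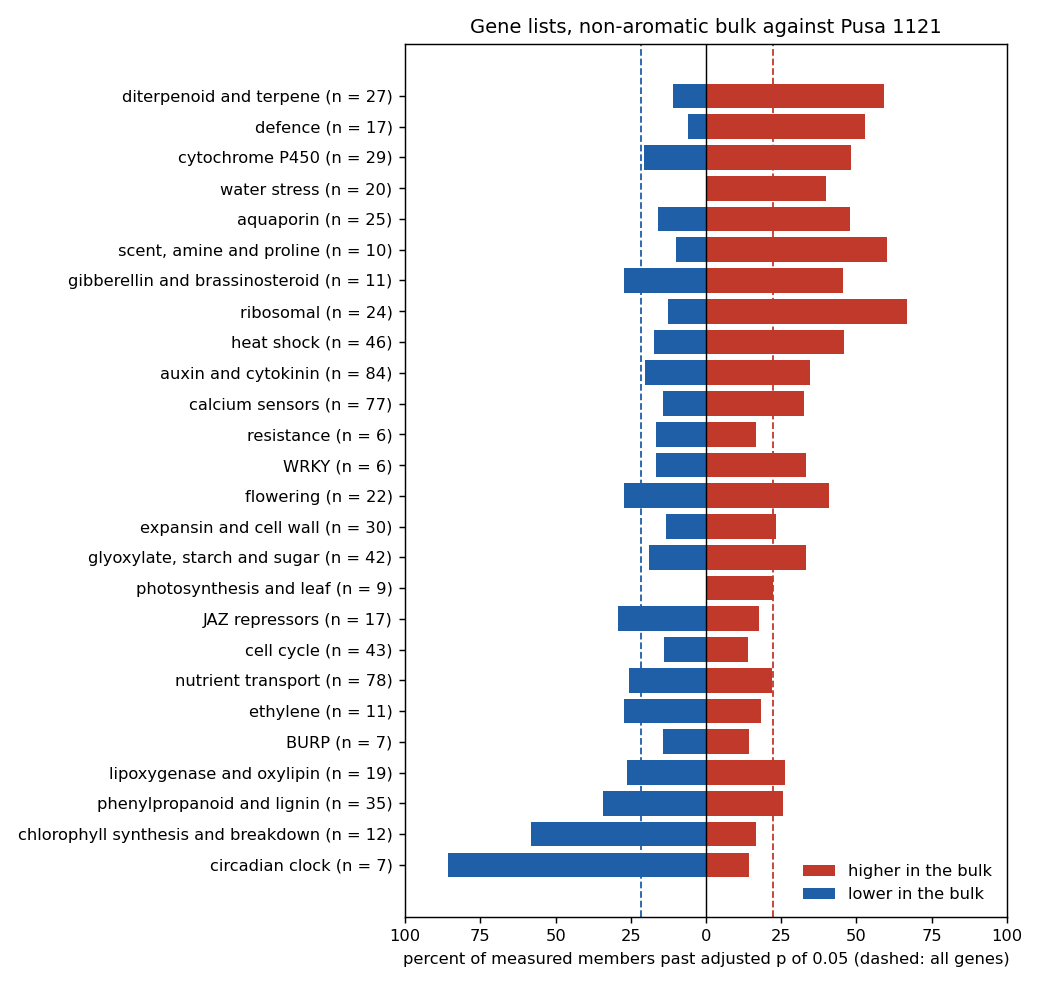
Percent of the measured members of 26 gene lists that were higher (red, to the right) or lower (blue, to the left) in the non-aromatic bulk than in Pusa 1121 at an adjusted p of 0.05, ordered by median difference; dashed lines mark all genes (22.4% and 21.7%). The terpene list stands at the top with 59.3% higher and the clock list at the bottom with 85.7% lower.

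Which levels of the scented parent the unscented lines kept was read from the 973 genes (5.43% of all) whose parents passed the test and lay at least 4-fold apart. A level counted as kept when the bulk was within 1.5-fold of Pusa 1121 and more than 2-fold from Pusa 1342, as lost in the mirror case, and as outside when it lay more than 1.5-fold beyond either parent. The pool had kept the Pusa 1121 level at 142 genes (14.6%) and lost it for that of Pusa 1342 at 255 (26.2%), with 471 between (48.4%) and 105 outside (10.8%). Of those outside, 52 lay above both parents and 53 below both. In 34 of these 53 the bulk mean was under 100, where the spread on the log2 scale is wide. The median gene lay 59.1% of the way from Pusa 1121 to Pusa 1342, with quartiles at 28.5% and 87.2%, and the aromatic bulk, measured against the same parents, lay at 32.3%. These positions are descriptions without a test, and they share the Pusa 1121 arrays with the comparison above. On the linear scale the median position was 57.1%. Genes brighter in Pusa 1121 were kept at 97 and lost at 77 of 428, and genes brighter in Pusa 1342 at 45 and 178 of 545. The median positions of these sets were 42.2% and 70.8% on the log2 scale, both nearer the brighter parent, and 68.3% and 49.4% on the linear scale.

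**Figure D5:**
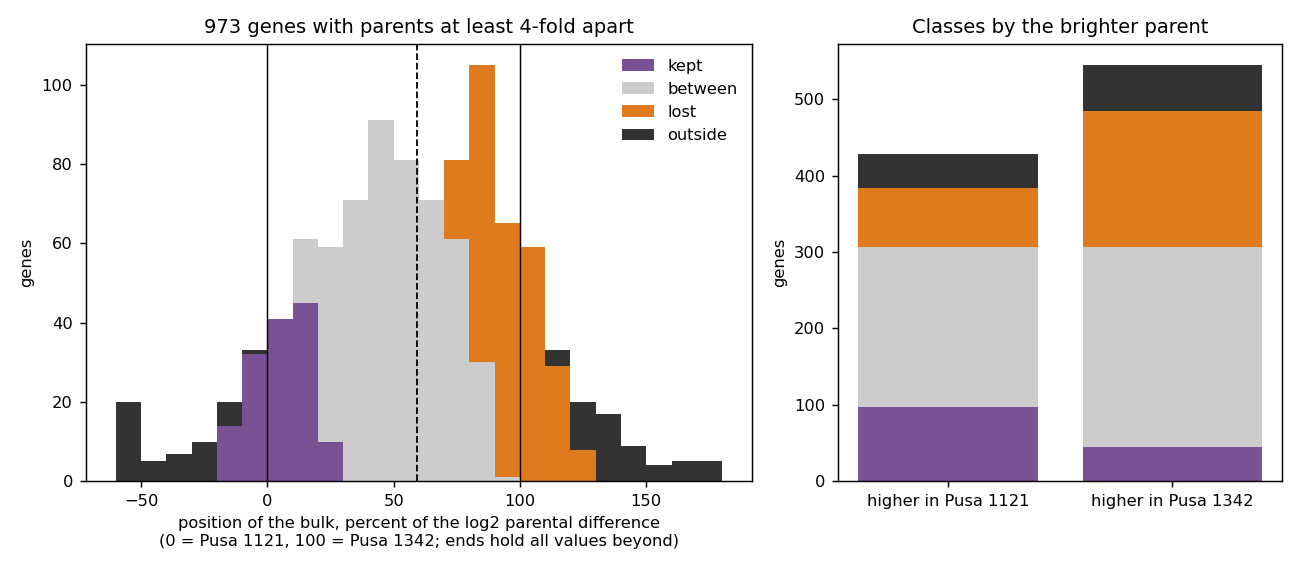
Left, number of genes by the position of the non-aromatic bulk between the parents, in percent of the log2 parental difference, stacked by class, with a dashed line at the median of 59.1%. Right, number of genes in each class, split by the brighter parent; lost genes number 178 where Pusa 1342 is brighter and 77 where Pusa 1121 is.

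Among bright genes with a published name, the kept levels with the widest parental gap were these. The acyltransferase gene AT5 (LOC4338283) read 7156, 6760.5, 6939.6 and 6806 in the bulk and 9763, 10009, 9145 and 9697 in Pusa 1121, with 724 in Pusa 1342. The glucosidase gene BGLU13 (LOC4336146) averaged 1958, 2626 and 296 in the same order, the ascorbate peroxidase gene APX5 (LOC4351664) 589.5, 815 and 98.6, and LOX9 belongs here too. The dehydrin gene RAB16C (LOC4350452) was kept at a low level, 80.6, 117, 124 and 102 in the bulk and 77.3, 149, 79.8 and 77.9 in Pusa 1121 against 553 in Pusa 1342. Kept is not the same as unchanged, since AT5, BGLU13, APX5 and LOX9 each passed the test against Pusa 1121 with log2 differences from -0.48 to -0.42. The BGLU13 call was lost without bulk array 4 (-0.40, limma adjusted p = 0.0565) or Pusa 1121 array 4 (-0.40, adjusted p = 0.0580), and with its dim second probe set averaged in. The lost levels with the widest gap were BBD1, HSP17.4, CCA1, EXPB3 and IMCEL2, described above. For these 5 the bulk lay between 96.5% and 111% of the way to Pusa 1342.

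By chromosome, the share of genes called ran from 42.0% on chromosome 11 to 46.6% on chromosome 9, around the 44.1% of all genes. The median position ran from 45.2% on chromosome 4 (22 kept and 18 lost of 97) to 71.3% on chromosome 3 (10 kept and 35 lost of 107), and was 57.5% on chromosome 8 (18 and 17 of 79), which carries BADH2. Among the 50 measured genes on either side of BADH2, 19 were higher and 18 lower, or 37.0%. Of these, 5 had parents at least 4-fold apart, with 2 kept, 3 between and 0 lost. LOC4345559 was kept, with 283, 379, 249.5 and 222 in the bulk, 297, 287, 249 and 241 in Pusa 1121 and a mean of 1155 in Pusa 1342, as was the dim LOC4345525. LOC4345640 lay between, with 459, 434, 431 and 431 against 200.2, 258, 246 and 191 and 984 in Pusa 1342, as did LOC4345562 (240.1, 43.4 and 684) and the dim LOC4345561 (43.1, 12.8 and 66.3). The LOC4345561 call was lost in 9 of 15 alternative fits, with adjusted p-values from 0.00526 to 0.129, among them every fit that left out 1 array other than bulk array 2 or Pusa 1121 array 3, with a difference of 1.72 to 2.40 in those. BADH2 itself was between.

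The bulk also differed from Pusa 1121 at genes where the parents were alike. Of 10960 genes with parents within 1.5-fold of each other, 4166 were called (38.0%), a smaller share than the 44.1% of all genes. The bulk lay at least 2-fold above both parents at 143 of these called genes and at least 2-fold below both at 190. Of these, 73 and 70 reached a mean of 500 in the bulk or in either parent. Above both stood Hd3a, CPS4 and Cht-1 and also PP2C68, a protein phosphatase gene of the clade that restrains abscisic acid signalling, with 1989, 1548, 1393 and 1645 in the bulk, 432, 520.5, 389.6 and 417 in Pusa 1121 and a mean of 437 in Pusa 1342. The calmodulin-like gene CML31 (LOC4325408) averaged 848 ± 34.4 in the bulk against 318 ± 48.7 and 278 ± 58.4 in the parents. Below both stood LAC7, MADS50 and JAZ8 and also BGLU25 (LOC4341870), a glucosidase gene, at 532 ± 32.7 against 1378 ± 174 and 1527 ± 158, and SPL12 (LOC4341986), of the squamosa promoter-binding family, at 177 ± 58.3 against 508 ± 42.7 and 538 ± 35.4. For LAC7 the bulk read 552, 568, 423 and 519 and Pusa 1121 4073, 3465, 3816 and 4111, with 4353 in Pusa 1342 and 566 in the aromatic bulk, so both pools were low where both parents were high.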

How the data were processed

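Leaf RNA was extracted with a Qiagen kit, biotin-labelled and hybridised to a rice GeneChip, 1 array per sample, per the labels' protocols. GCOS 1.2 and RMA are listed in the submitters' processing notes without saying what each did. The deposited values are linear intensities with the same distribution on every array; the 4 arrays a group limit the precision. Of 57381 probe sets, 187 controls were left out. Log2(intensity + 1) of the other 57194 was fitted by group over all 16 arrays with limma 3.58.1 in R 4.3.3 (12 residual degrees of freedom), and p-values were adjusted by Benjamini-Hochberg over all of them at a threshold of 0.05. In data simulated with the real spread, 67, 67 and 66 of the 57194 probe sets were changed by 0.5, 1 and 2 log2 units. Of these, 10.4%, 34.3% and 48.5% were recovered. With so few changed, the adjusted threshold was stricter than in the real comparison, where 15010 passed. These shares therefore do not give the recovery in the real comparison.

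GEO's platform annotation gave 1 gene to 22436 probe sets, several to 95 and none to 34663, so 17905 genes were read, each through its brightest probe set, and 2444 had a published name in the RefSeq table of assembly ASM3414082v1, taken partly from synonyms. The comparison, the 26 gene lists and the named genes were chosen with earlier results of these data known. Named were BADH2, BADH1 and 4 proline and polyamine genes, the 10 largest called differences each way among named genes and 3 each way among unnamed ones with a mean of at least 500 in either group, up to 4 members per list by smallest adjusted p, 5 genes per parental class and the neighbours of BADH2 with parents 4-fold apart. Same-numbered arrays did not deviate together (correlations of -0.024 to 0.0036), so numbers were not taken as pairs.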

Additional observations from a re-analysis of the deposited data

Results flagged for a closer look

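Among 260 groups of 4 arrays examined for the named genes, 16 held an array far from the other 3, by a gap that took up nearly the whole range (above Dixon's 95% critical value). Chance gives about 1 such group in 20. In the non-aromatic bulk, array 4 read 12987 for ADC1 where the others spanned 11288 to 11482, 43.0 for LOC9270995 (4.34 to 6.14) and 5029 for RPS26 (4753 to 4783). Bulk array 2 read 46.0 for PCL1 (80.7 to 85.1) and 702 for CIPK16 (556 to 580.5), array 3 read 1489 for CYP99A3 (1391 to 1408), and array 1 read 459 for LOC4345640 (431 to 434). In Pusa 1121, array 4 stood apart for 5 genes, with 2128 for PCL1 (2646 to 2694), 387 for CIPK6 (251 to 262), 45.7 for EXPA2 (74.0 to 78.9), 944 for CYCA1-4 (822 to 824) and 218 for WRKY62 (135 to 146). Pusa 1121 array 2 read 1144 for salT (1038 to 1052), 387 for 4CL5 (351 to 354) and 149 for RAB16C (77.3 to 79.8), and array 1 read 4630.0 for HAK1 (4435 to 4467.5). For the genes among these that passed the test, the groups did not overlap with or without the array that stood apart.

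Control spots, which the main comparison left out, also differed. The hybridisation controls were higher in the bulk by 0.31 log2 units, the excess of 3′ over 5′ signal was lower in the bulk for GAPDH (difference -0.67) and for actin (difference -0.32), and in each case the 4 arrays of one group did not overlap those of the other. The ubiquitin difference was 0.027 (exact permutation p = 0.0571).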

How the results depend on the processing

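The number of called probe sets (15010) and genes (7894) stayed within 1.5 times under the other planned fits, with 13457 to 14036 probe sets and 7205 to 7375 genes when 1 array was left out. Recentring on the hybridisation controls, chosen after seeing the data, gave 3597 probe sets higher and 11937 lower, and 1713 genes higher and 5859 lower. With the replicate block, 14132 probe sets and 7418 genes passed, and BADH1 (adjusted p = 0.0506) and LOC4345561 (0.0765) did not. With parents at least 8-fold apart, 54 genes were kept, 66 lost, 235 between and 31 outside. With the brighter parent at 500 or more, also chosen after seeing the data, the counts were 67, 148, 263 and 54, and a pseudocount of 16 left 66 outside. Of 2079 values of named genes under alternatives, 2036 stayed on the same side of the test, 35 lost the call, 2 gained it in the same direction (both for P5CS2) and 6 turned sign. These 6 were RAB16C at -0.13 and LOC4345559 at -0.26 on the hybridisation controls, LOC4345559 at -0.096 without bulk array 2 (up to 0.16 over the arrays left out), LOC4345525 at 0.025 without bulk array 3 (down to -0.72), and P5CS2 at -1.01, which passed as lower, and ETR2 at 0.13 with probe sets averaged. The cause was not tested where these values do not show it; averaging weighs dim probe sets like bright ones. Dim signal limits most of the chip, with a residual SD of 1.09 log2 units over the dimmer probe sets and 0.196 over the brighter. The search for heat shock elements in promoters was not run, since promoter sequences were not used here.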
